A study of Mus musculus with 12 samples.

Results

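The 39 genes described here act in DNA replication and S phase, from the loading of the replicative helicase to the packaging of new DNA into chromatin. They were chosen by name, as a list of known replication factors, with earlier results of these data known. All 39 symbols were found among the 27179 genes of the deposited count table, and all 39 passed the filter on low counts, which left 14473 genes to test. RNA from sorted hematopoietic stem cells of 12 C57BL/6J mice had been sequenced, with 1 library per mouse and 3 mice per genotype. The WT group was wild-type (libraries WT2, WT3 and WT4). The E group carried the Emu-myc transgene, in which the Myc proto-oncogene is driven by the immunoglobulin heavy chain enhancer, an element active mainly in B-lineage cells (E1 to E3). The C group was labelled a double knockout of the inflammatory caspases 1 and 11 (Casp1 -/- Casp11 -/-, C1 to C3), and the CE group carried the transgene on that double knockout (CE1 to CE3). Casp11 is listed in the table under its other name, Casp4. The labels state neither the ages of the mice nor whether they shared litters or sorting days.

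In G1 the origin recognition complex, with Cdc6 and Cdt1, loads rings of Mcm2 to Mcm7 onto origins of replication, and in S phase Cdc45 and the GINS complex join each ring to make the active helicase. Primase with polymerase alpha starts each strand, polymerases epsilon and delta extend it on the sliding clamp PCNA, and ribonucleotide reductase and thymidylate synthase supply the deoxynucleotides. Most of these genes are transcribed at the G1/S transition under E2F factors, and many are also bound by Myc in proliferating cells. Most stem cells of the adult marrow rest outside the cycle.

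Promoters are shown for 3 of the 15 members whose window held an E2F word, since E2F control is what the list is best known for. These are the ones among the members with the smallest p in a comparison. The windows come from RefSeq on GRCm38.p6, the patch release of the mm10 assembly, and span 250 bases before to 50 bases after the start of the transcript listed there. Capitals mark the E2F words, here TTTCCCGC, TTTCGCGC, TTTGCCGC or TTTGGCGC on either strand, and overlapping words were counted separately.
Orc1 (chr4:108579204-108579503, plus strand): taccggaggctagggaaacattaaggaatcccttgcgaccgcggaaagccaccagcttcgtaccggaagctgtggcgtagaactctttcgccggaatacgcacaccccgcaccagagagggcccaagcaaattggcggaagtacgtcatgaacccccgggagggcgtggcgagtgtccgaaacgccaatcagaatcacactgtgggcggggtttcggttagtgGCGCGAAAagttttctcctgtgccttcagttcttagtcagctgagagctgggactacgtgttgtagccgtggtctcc
Mcm5 (chr8:75109259-75109558, plus strand): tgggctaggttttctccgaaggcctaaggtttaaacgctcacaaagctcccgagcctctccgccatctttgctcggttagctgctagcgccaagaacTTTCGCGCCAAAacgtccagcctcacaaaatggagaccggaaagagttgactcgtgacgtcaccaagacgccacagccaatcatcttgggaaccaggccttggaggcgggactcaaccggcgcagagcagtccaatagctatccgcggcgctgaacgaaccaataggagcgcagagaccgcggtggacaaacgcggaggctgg
Cdt1 (chr8:122567765-122568064, plus strand): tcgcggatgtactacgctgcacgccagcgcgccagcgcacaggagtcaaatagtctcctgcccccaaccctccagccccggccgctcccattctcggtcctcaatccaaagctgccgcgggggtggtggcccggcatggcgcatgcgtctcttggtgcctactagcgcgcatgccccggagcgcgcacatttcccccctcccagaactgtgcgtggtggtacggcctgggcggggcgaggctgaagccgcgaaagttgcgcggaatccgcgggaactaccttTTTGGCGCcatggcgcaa
In Orc1 the word GCGCGAAA starts 27 bases before the annotated start. In Mcm5 the words TTTCGCGC and GCGCCAAA overlap into a single run of capitals. In Cdt1 the word TTTGGCGC starts 32 bases after the annotated start. Of the 39 members, 34 had a window in the table, and the others were Gins1, Gins2, Mcm4, Pole and Rfc2. An E2F word lay in 15 of these 34 genes (44.1%), against 704 of 27025 genes of the table (2.61%). Mcm6 held 3 such words, and Mcm3, Mcm7 and Rfc3 held 2 each. The words CCAAT, recognised by the factor NF-Y, were found in 21 of the 34 (61.8%, against 41.1% of all genes), the Myc-type E-box CACGTG in 4 (11.8%, against 8.09%), and the cell cycle homology words TTTGAA or TTCGAA in 6 (17.6%, against 21.7%), all on either strand. The median GC content of the members' windows was 60.0%, and that of all windows 52.7%. A match describes letters in the window only. Of the 12 members that are described below as changed, Gins1 and Pole had no window to search. Among the others Mcm5, Orc1 and Rfc3 held an E2F word, and these 3 did not change in the same direction.

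Libraries held 24529611 to 34065910 counts, of which the members took 174802 to 281652. Casp1 and Casp4 served as the check of the labels. The level of Casp1 was 39.1 ± 9 CPM (counts scaled to the effective size of each library; mean ± SD, n = 3 here and throughout) in WT and 42.1 ± 3.82 in E, and 5.9 ± 0.699 in C and 6.12 ± 0.563 in CE. Casp4 was at 12.5, 14.5 and 12 CPM (WT), 12.5, 14.4 and 17.2 (E), 9.92, 7.07 and 9.96 (C) and 9.79, 13.7 and 9.0 (CE). Its counts fell over both backgrounds (log2 fold change -0.49, SE 0.13, adjusted p = 0.0189) but remained in every C and CE library, and CE2 lay inside the range of WT and E. It did not pass within either background. Myc itself averaged 426 ± 28.5 CPM in wild-type and 434 ± 13 in E, and 327 ± 8.86 in C and 367 ± 36.9 in CE. The E and WT libraries overlapped, and the CE libraries (345 to 409.5) lay above the C libraries (319 to 337). Its transgene differences did not pass (log2 fold change 0.03 in E against WT and 0.17 in CE against C), and it was lower in C and CE over both backgrounds (-0.31, adjusted p = 0.00816). In this caspase comparison 21% of all genes passed, and caspase genotype nearly coincides with Y-linked transcripts, as given below. The stem cell genes Hlf, Kit, Mecom and Procr were detected in every library, with group means of 81.6 to 135 CPM for Hlf and 390.3 to 479 for Kit, while Slamf1 (CD150) was at 3.65 to 4.74 and the neutrophil granule enzyme Mpo at 6031 to 7693. In a bulk sample, fewer cells of a type and less RNA per cell cannot be told apart. Y-linked transcripts summed to 88.2 to 121 CPM in CE1, CE2 and the 3 C libraries and to at most 0.265 CPM in the other 7 libraries, CE3 among them. C1 and C3 had 22900 and 21247 genes with at least 1 count, and the other 10 libraries 17310 to 18863.

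The members were expressed in all 12 libraries, with mean levels from 15.6 CPM for Orc1 to 648 for Mcm6 and a median of 128. Per kilobase of the longest protein-coding transcript, which allows genes to be compared, Pcna was first at 224 CPM and Orc1 last at 5.17. Of the helicase subunits, which join in equal numbers, Mcm7 was at 200.2 CPM per kilobase, Mcm3 at 171, Mcm5 at 167, Mcm6 at 149, Mcm2 at 114 and Mcm4 at 54.2. For a single member, the highest library was at 1.15 (Cdc6) to 1.87 times (Hells) the level of the lowest, with a median of 1.44, against 1.48 for the 8357 genes tested whose mean level lay in the members' range. WT2 was the highest library for 19 members and WT4 for 10, while E3 was the lowest for 13, CE3 for 12 and CE2 for 6. The WT libraries WT2 and WT4 differed in which members were high, as the plot of levels by library shows: Dut, Orc6, Gins1 and Hells were high in WT2, and Mcm5, Cdt1, Pold1 and Rfc2 in WT4.

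**Figure D1:**
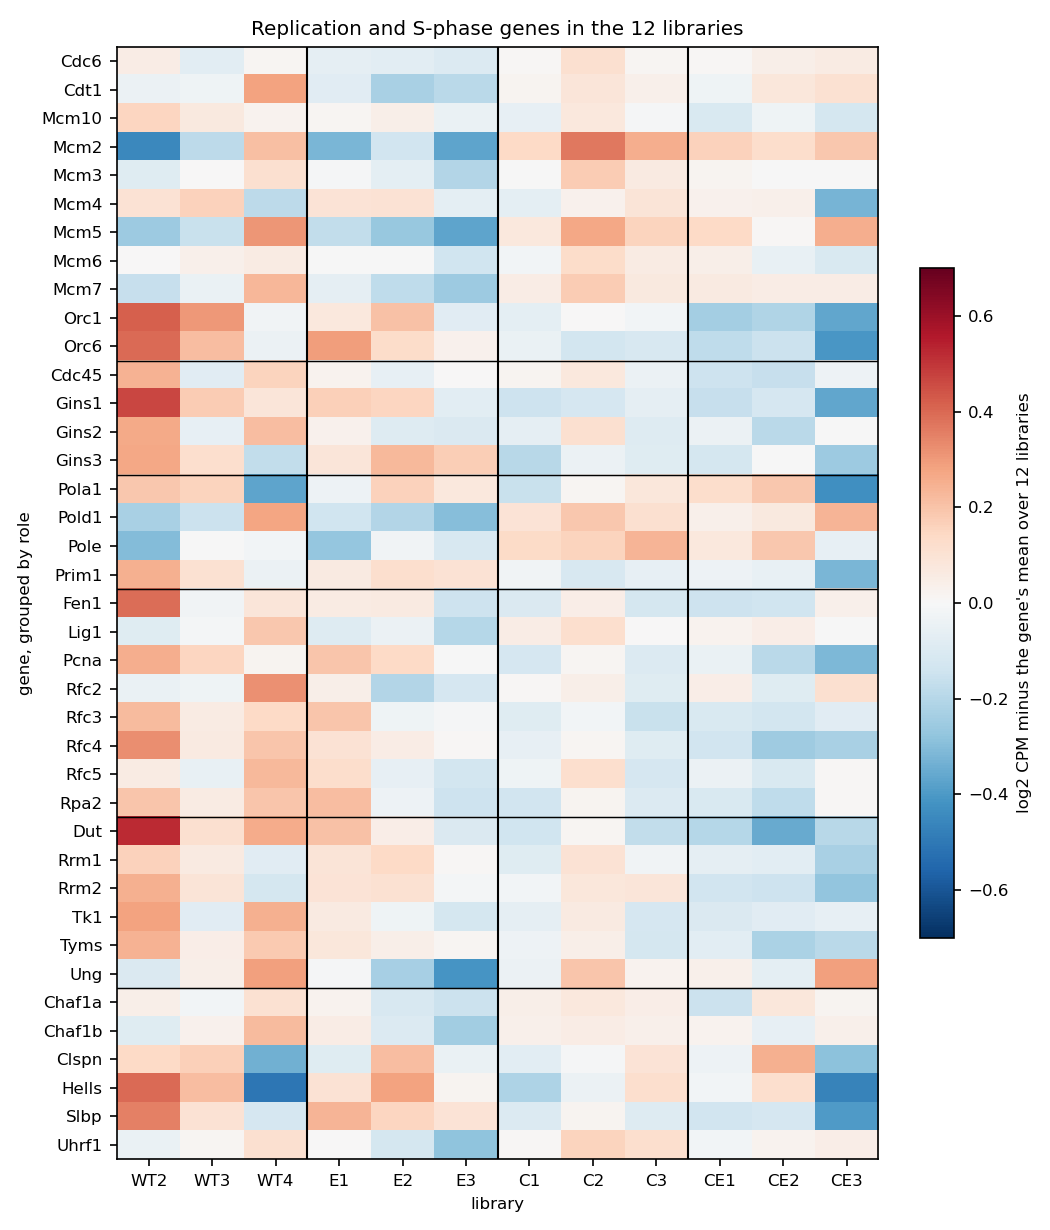
Level of each of the 39 genes (rows, grouped by role in the order licensing, helicase activation, polymerases, clamp and lagging strand, nucleotide supply, chromatin and checkpoint) in each library (columns), as log2 CPM minus the gene's mean over the 12 libraries; red is above and blue below that mean. E3 is the lowest library for 13 rows and CE3 for 12, and the deepest reds of WT2 and WT4 lie in different rows.

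The first comparison asks whether stem cells that carry the Emu-myc transgene express replication genes at another level. They did not differ by enough for any member to pass: 0 of 39 changed in E against WT, 0 of 39 in CE against C, and 0 of 39 over both backgrounds (edgeR's quasi-likelihood test over 14473 genes, Benjamini-Hochberg adjusted p under 0.05). What the members shared was a small difference downwards. With both backgrounds combined, 36 of 39 had a negative log2 fold change (92.3%, against 50.1% of all genes tested), and the median was -0.09 (all genes -0.0004), with a median SE of 0.072 for a single gene. The direction of the median held in each background, at -0.12 in E against WT, where 32 of 39 were lower, and -0.07 in CE against C, where 35 were lower, while the medians of all genes were -0.0025 and 0.0079. Genes of one pathway are not independent of each other, and these counts describe the list without a p-value. Across the 39 members the log2 fold change had a Pearson correlation with transcript GC content of -0.72 in E against WT and 0.41 in CE against C, given as a description; its part in the difference was not tested. Without WT2 the median of E against WT was -0.06, with 28 of 39 lower. Without C2 the median of CE against C was -0.04, with 25 of 39 lower, and with trends on transcript GC content and length removed from each library it was -0.03, with 24 lower (all genes 0.04).

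Few genes of any kind passed: 0.0829% of genes passed in E against WT, 0.207% in CE against C and 0.539% over both backgrounds. At an unadjusted p under 0.05, 3 members were lower and 0 higher in E against WT (6.58% of all genes were under that level), 1 lower and 0 higher in CE against C (5.14%), and 3 lower and 0 higher over both backgrounds (8.98%). DESeq2 and limma voom also called 0 members in each of these 3 comparisons. The 3 E libraries lay wholly below the 3 WT libraries for Mcm6 and Cdt1 and for no other member, where groups did not overlap for 8.02% of all genes. In CE against C the groups did not overlap for 6 members, all lower in CE (Orc1, Orc6, Rfc4, Rrm2, Dut and Slbp), where the share over all genes was 14.9%. With 6 transgenic against 6 other libraries, 0 members were separated, and 0.746% of all genes were.

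Cdt1, the loader of the helicase, had the smallest unadjusted p in E against WT. Its values were 205, 206 and 257 CPM (WT), 199.6, 180.0 and 185 (E), 214, 224 and 216 (C) and 207, 223 and 227 (CE), so all E libraries lay below all WT libraries while C and CE overlapped (log2 fold change -0.24, SE 0.099, unadjusted p = 0.0271, adjusted p = 0.722). Ung, the glycosylase that removes uracil from DNA, was at 95.3, 105 and 125 CPM (WT), 102, 86.9 and 76.8 (E), 99.1, 117 and 104 (C) and 104, 97.2 and 124 (CE). Its E and WT libraries overlapped, E3 was lowest, and WT4 and CE3 were highest (E against WT: log2 fold change -0.29, SE 0.13, unadjusted p = 0.0402, adjusted p = 0.747). Dut, which breaks down dUTP before it can be built into DNA, was at 471, 354 and 392 CPM (WT), 378, 338 and 305 (E), 297, 330.1 and 291 (C) and 285, 257 and 286 (CE); WT2 stood above the other 11 libraries, and E overlapped WT (log2 fold change -0.25, SE 0.12, unadjusted p = 0.0469, adjusted p = 0.755). Gins2 of the helicase-activating GINS complex came next, at 69.3 ± 8.02 CPM in WT and 60.4 ± 3.05 in E (log2 fold change -0.20, SE 0.10, unadjusted p = 0.073, adjusted p = 0.768).

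In CE against C the member with the smallest p was Rrm2, the small, S-phase-limited subunit of ribonucleotide reductase. Rrm2 was at 140.2, 125 and 108 CPM (WT), 126, 127 and 117 (E), 117, 124 and 125 (C) and 107, 107 and 97.5 (CE). All 3 CE libraries lay below all other 9 libraries (CE against C: log2 fold change -0.23, SE 0.097, unadjusted p = 0.0311, adjusted p = 0.874). In E against WT its log2 fold change was -0.01, with E inside the range of WT. Orc1, Rfc4 and Tyms followed, with log2 fold changes of -0.24, -0.16 and -0.12 and adjusted p of 0.999 for each. Over both backgrounds, Dut (-0.20), Rfc4 (-0.15), Orc1 (-0.21) and Tyms (-0.12) had the smallest p, with adjusted p from 0.46 to 0.616. By role, all 11 licensing and origin genes, all 8 clamp and lagging-strand genes and all 6 nucleotide genes had a negative log2 fold change over both backgrounds, with medians of -0.09, -0.08 and -0.12. The 3 members with a positive value were Gins3 (0.03), Pola1 (0.03) and Clspn (0.01), each well under its SE.

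**Figure D2:**
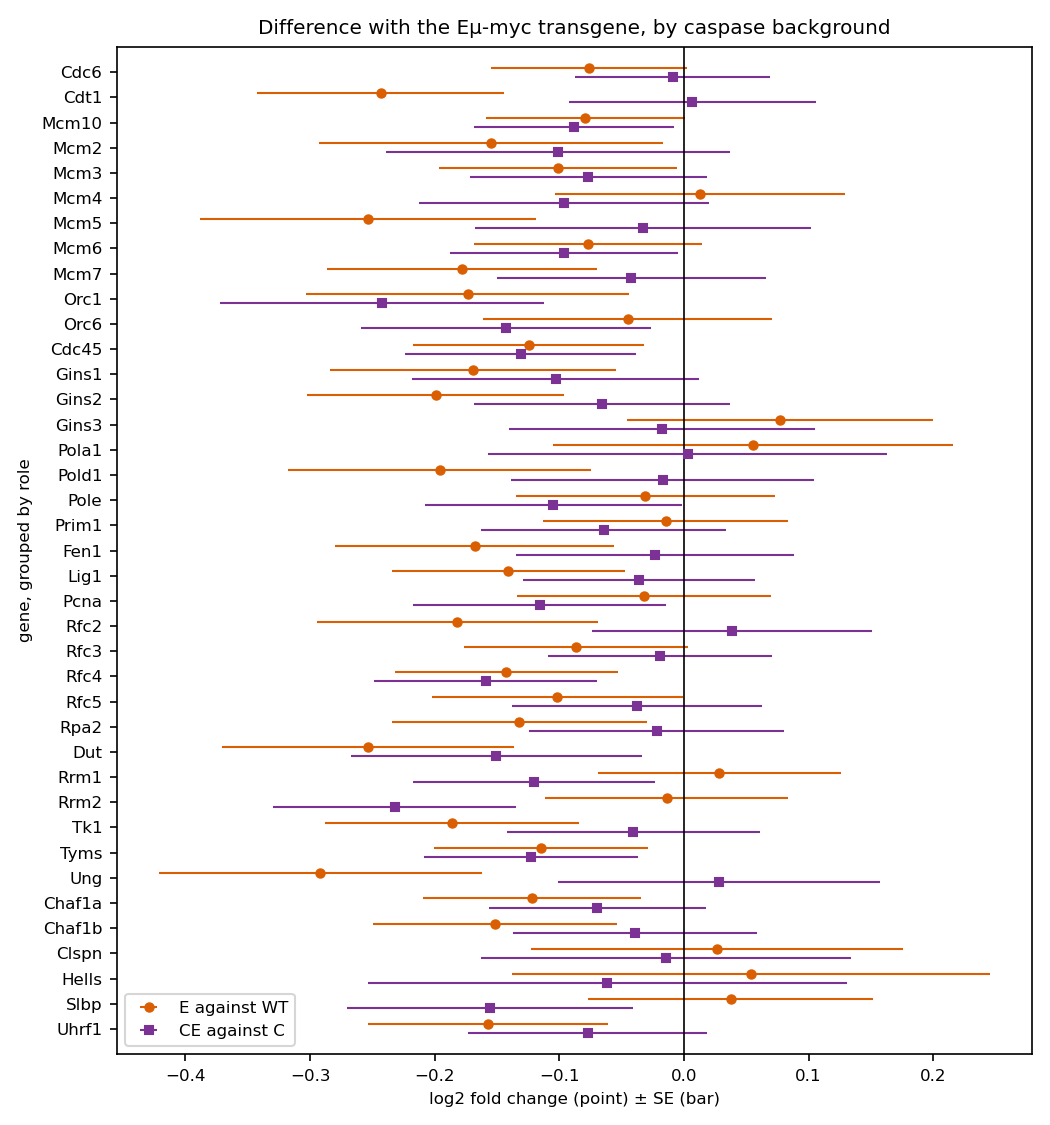
Log2 fold change (x axis) of each of the 39 genes (y axis, grouped by role) with the Emu-myc transgene: circles are E against WT and squares CE against C, with bars of ± 1 SE from the edgeR fit, n = 3 libraries per group. Most points lie left of 0 in both backgrounds, 32 of 39 circles and 35 of 39 squares, and none passed the threshold.

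Whether the transgene's effect differed between caspase backgrounds was tested as the difference of these 2 differences. It was past the threshold for 0 of 39 members and for 0% of all genes, and at an unadjusted p under 0.05 for 0 members against 2.11% of genes, with 0 members by DESeq2 and limma voom. The smallest p belonged to Cdt1 (log2 fold change 0.25, SE 0.14, unadjusted p = 0.0948, adjusted p = 1), then Ung (0.32), Rrm2 (-0.22) and Rfc2 (0.22), with adjusted p of 1 for each. The median SE of this difference was 0.14 for a member, so differences of that size could not be detected.

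Other genes of the cycle gave the transgene comparisons no call either. Among 51 further replication genes, 29 E2F and RB regulators, 23 checkpoint genes and 26 genes of G2/M and mitosis, 0 passed in either background or over both. Over both backgrounds, 39 of the 51 replication genes had a negative log2 fold change (median -0.05), 15 of the 29 regulators (median -0.0015), 12 of the 23 checkpoint genes (median -0.01) and 25 of the 26 mitotic genes (median -0.06). Some markers of B-lineage cells and of stem cells did move with the transgene, in a comparison where 0.539% of all genes passed. Of the 14 tested B-lineage genes, 10 fell over both backgrounds, led by Igll1 (-2.39), Vpreb1 (-2.28) and Cd79a (-2.07), which encode parts of the early B-cell receptor. The summed level of the list was 939 to 1318 CPM (WT), 1023 to 1641 (E), 1187 to 1409 (C) and 761 to 1031 (CE), and Ms4a1 (CD20) was at or near 0 in all libraries. Of 20 stem cell identity genes, all 20 had a positive log2 fold change and 2 rose, Hlf (log2 fold change 0.48, SE 0.082, adjusted p = 0.0138) and Mecom (log2 fold change 0.57, SE 0.11, adjusted p = 0.031). Their summed level was 1569 to 1707 CPM (WT), 1793.5 to 1925 (E), 1628 to 1700 (C) and 1955 to 2018.5 (CE). Erythroid markers had negative values for all 15 genes (median -0.72, 0 passed), with summed levels of 635 to 1081 CPM (WT), 548 to 848 (E), 670.4 to 734 (C) and 475 to 618 (CE). Basophil, eosinophil and mast cell genes had negative values for 10 of 11 (median -0.61, 0 passed, 7 lower at an unadjusted p under 0.05), with summed levels of 221 to 330.4 CPM (WT), 147 to 229.5 (E), 142 to 174 (C) and 109.6 to 136 (CE). Neutrophil and monocyte genes had negative values for 7 of 13 (median -0.06), megakaryocyte genes for 5 of 9 (-0.05) and T and NK genes for 5 of 9 (-0.04), with 0 passed in each. The part of these cells in the lower replication genes was not tested.

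The other comparison asks whether loss of caspases 1 and 11 goes with other levels of replication genes. Over both backgrounds, C and CE against WT and E, 12 of 39 members changed (30.8%, against 21% of all genes), and they moved in both directions. The genes that rose were Mcm2 and Mcm5 of the helicase ring and Pole, the catalytic subunit of the leading-strand polymerase. The 9 that fell were Dut, Orc6, Gins1, Rfc4, Pcna, Slbp, Orc1, Tyms and Rfc3. Over all genes 9.26% rose and 11.8% fell. The changes were between 1.14 and 1.32 times, and the median over the 39 was -0.08 (all genes 0.0002), with 24 members lower and 15 higher. At an unadjusted p under 0.05 there were 4 higher and 12 lower, against 35.3% of all genes. Orc6 alone among the members had all 6 caspase-deficient libraries on one side of the 6 others, where 8.08% of all genes did. These 12 calls rest on libraries that also differ in Y-linked transcripts and in the levels of GC-rich against GC-poor genes, as given below. The first nearly coincides with caspase genotype, and with it as a covariate 0 of the 12 calls held, where 2 of 14473 genes passed. With trends on both transcript GC content and transcript length removed 1 held, Dut, where 10.7% of 12851 genes passed.

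Licensing and origin recognition held both directions. Mcm2 (Gene ID 17216, chr6:88883474-88898780) was at 278, 334 and 440.0 CPM (WT), 305, 346 and 294 (E), 418, 491 and 453 (C) and 424, 413 and 432 (CE). The C and CE libraries lay between 413 and 491 CPM and the others at 278 to 346, except WT4 at 440 (log2 fold change over both backgrounds 0.40, SE 0.098, adjusted p = 0.013). Mcm5 (Gene ID 17218, chr8:75109468-75128439) was at 468, 502 and 691 CPM (WT), 496, 465 and 432 (E), 588, 675 and 623 (C) and 615, 562 and 667 (CE). Here too WT4 was the exception, and it was the highest of all 12 libraries (log2 fold change 0.29, SE 0.095, adjusted p = 0.0409). The other ring subunits did not pass: Mcm3 ranged from 486 ± 33.8 CPM in E to 547 ± 34.4 in C, Mcm4 from 184 ± 24.9 CPM in CE to 200.1 ± 13.1 in E, Mcm6 from 627 ± 33.7 CPM in E to 674 ± 34 in C and Mcm7 from 528 ± 35.8 CPM in E to 633 ± 30.8 in C. Their log2 fold changes were 0.08, -0.07, 0.02 and 0.15.

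Orc6 (Gene ID 56452, chr8:85299632-85308279), the smallest subunit of the origin recognition complex, fell. Its levels were 73.2, 64.6 and 54.1 CPM (WT), 68.3, 61 and 56.8 (E), 53.9, 50.9 and 51.5 (C) and 49.2, 50.3 and 42 (CE), so the highest caspase-deficient library (53.9) lay just under the lowest of the others (54.1, WT4), and the groups did not overlap (log2 fold change -0.35, SE 0.082, adjusted p = 0.0114). Orc1 (Gene ID 18392, chr4:108575705-108616030), the subunit that marks origins for licensing, was the least abundant member at 20.6, 19 and 15.2 CPM (WT), 16.2, 17.8 and 14.6 (E), 14.7, 15.5 and 15.2 (C) and 13.1, 13.3 and 12 (CE). WT4 lay inside the range of C and E3 just under it, and the 3 CE libraries were below all others (log2 fold change -0.31, SE 0.092, adjusted p = 0.0296). Cdc6, which helps the complex load the helicase, ranged only from 66.4 ± 0.801 CPM in E to 72.3 ± 2.89 in C, with a log2 fold change of 0.08 that did not pass. For Cdt1 the value was 0.09. Mcm10, a scaffold needed to fire the loaded helicase, ranged from 74.9 ± 2.59 CPM in CE to 84.1 ± 3.63 in WT (-0.08). Of the 11 genes of this role, 2 rose, 2 fell and 7 did not pass.

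Of the 4 helicase activators, Gins1 (Gene ID 69270, chr2:150909556-150931280) fell and the other 3 did not pass. Gins1 was at 59.8, 48.9 and 45.7 CPM (WT), 48.4, 47.9 and 41 (E), 39, 39.7 and 41.3 (C) and 38.5, 39.8 and 33.5 (CE). WT2 stood highest, and only E3, at 41.0, came down into the range of the C libraries (log2 fold change -0.33, SE 0.081, adjusted p = 0.0133). Gins2 ranged from 59.4 ± 4.02 CPM in CE to 69.3 ± 8.02 in WT, Gins3 from 18.5 ± 1.63 CPM in CE to 22.5 ± 1.09 in E and Cdc45, the third component of the active helicase, from 81.1 ± 4.02 CPM in CE to 94.9 ± 10.8 in WT. All 3 had negative values (-0.09, -0.24 and -0.10).

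Among polymerases, Pole (Gene ID 18973, chr5:110286319-110337468) rose. Its levels were 103, 127 and 126 CPM (WT), 106, 125 and 118 (E), 139.7, 142 and 151 (C) and 134, 145 and 123 (CE), with all C libraries above all WT libraries and CE3 inside the range of WT and E (log2 fold change 0.24, SE 0.073, adjusted p = 0.0303). Pold1, the catalytic subunit of polymerase delta, had a similar log2 fold change of 0.24 with more spread in WT and missed the threshold (adjusted p = 0.061); it ranged from 293 ± 16.5 CPM in E to 373 ± 12.9 in C. Prim1, the primase, lay on the other side at -0.20 (adjusted p = 0.0549), ranging from 68.1 ± 7.26 CPM in CE to 80.3 ± 8.01 in WT. Pola1, its partner in polymerase alpha, ranged from 76.8 ± 6.36 CPM in C to 81.5 ± 5.62 in E (-0.06).

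Clamp and clamp loader genes were among those that fell. Rfc4 (Gene ID 106344, chr16:23113948-23127730), a subunit of the loader, was at 70.3, 58.7 and 64.2 CPM (WT), 60.3, 58.2 and 56.6 (E), 54, 56.7 and 53 (C) and 51.2, 47.3 and 48.1 (CE). The CE libraries lay below all others, and the C libraries touched the range of E (log2 fold change -0.25, SE 0.063, adjusted p = 0.0152). Pcna (Gene ID 18538, chr2:132249286-132253180), the clamp itself, was at 404, 375 and 343 CPM (WT), 386, 372 and 338 (E), 312, 341 and 316 (C) and 327, 296 and 271 (CE). C2 and E3 were the libraries that overlapped (log2 fold change -0.25, SE 0.072, adjusted p = 0.0244). Rfc3 (Gene ID 69263, chr5:151642817-151651208) fell by less (log2 fold change -0.19, SE 0.063, adjusted p = 0.0425), with CE and C at 57.2 ± 0.989 and 58 ± 2.74 CPM and WT and E at 67.9 ± 3.85 and 63.9 ± 5.67. The loader subunits Rfc2 and Rfc5 did not pass, ranging from 296 ± 26.2 CPM in E to 336 ± 49.6 in WT and from 136 ± 5.44 CPM in CE to 149 ± 14.7 in WT. The flap nuclease Fen1 and the ligase Lig1, which finish Okazaki fragments, ranged from 155 ± 11.1 CPM in CE to 184 ± 28.3 in WT and from 272 ± 15.3 CPM in E to 305 ± 12.4 in C, with log2 fold changes of -0.15 and 0.08. Rpa2, part of the protein that coats single-stranded DNA, ranged from 156 ± 10.3 CPM in CE to 184 ± 9.82 in WT (-0.16, adjusted p = 0.118).

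Of the nucleotide genes, Dut (Gene ID 110074, chr2:125247248-125259049) had the smallest p of all members. Its values, given above, averaged 406 ± 59.6 CPM (WT), 340.3 ± 36.1 (E), 306 ± 20.9 (C) and 276 ± 16.5 (CE), with C2 and E3 overlapping (log2 fold change -0.35, SE 0.083, adjusted p = 0.0105). Tyms (Gene ID 22171, chr5:30038546-30073645), the thymidylate synthase that turns the product of Dut into a thymidine nucleotide, was at 129, 112 and 124 CPM (WT), 115, 112 and 109.9 (E), 106, 112 and 99.9 (C) and 104, 93.4 and 95.5 (CE), with C2 the only C or CE library above the lowest of the others, E3 (log2 fold change -0.20, SE 0.061, adjusted p = 0.0308). Rrm1 and Rrm2, the subunits of ribonucleotide reductase, ranged from 330.1 ± 20.7 CPM in CE to 379 ± 17.4 in E and from 104 ± 5.54 CPM in CE to 125 ± 15.9 in WT and did not pass (-0.13 and -0.14). Tk1, thymidine kinase, ranged from 148 ± 2.18 CPM in CE to 174 ± 23 in WT (-0.13), and Ung was the sole gene of this role with a positive value (0.14).

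Of the 6 chromatin and checkpoint genes, Slbp (Gene ID 20492, chr5:33640055-33652574), which binds the stem-loop of histone mRNAs, fell. It was at 154, 129 and 111 CPM (WT), 142, 134 and 129 (E), 113, 122 and 113 (C) and 109.7, 111 and 91.5 (CE), with CE3 lowest and WT4 the only WT or E library below the highest C library (log2 fold change -0.28, SE 0.081, adjusted p = 0.0272). The chromatin assembly subunits Chaf1a and Chaf1b ranged from 140.1 ± 9 CPM in E to 153 ± 1.86 in C and from 94.9 ± 9.76 CPM in E to 105 ± 11.4 in WT. Uhrf1, which recruits maintenance DNA methylation to new DNA, ranged from 342 ± 33.8 CPM in E to 399.6 ± 21.1 in C. Clspn, the checkpoint adaptor Claspin, ranged from 52.4 ± 9.72 CPM in CE to 53.9 ± 6.31 in E, and Hells, a chromatin remodeller, from 50.4 ± 10.1 CPM in CE to 59.5 ± 5.63 in E. None of these 5 passed, with log2 fold changes from -0.18 (Hells) to 0.11 (Uhrf1).

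**Figure D3:**
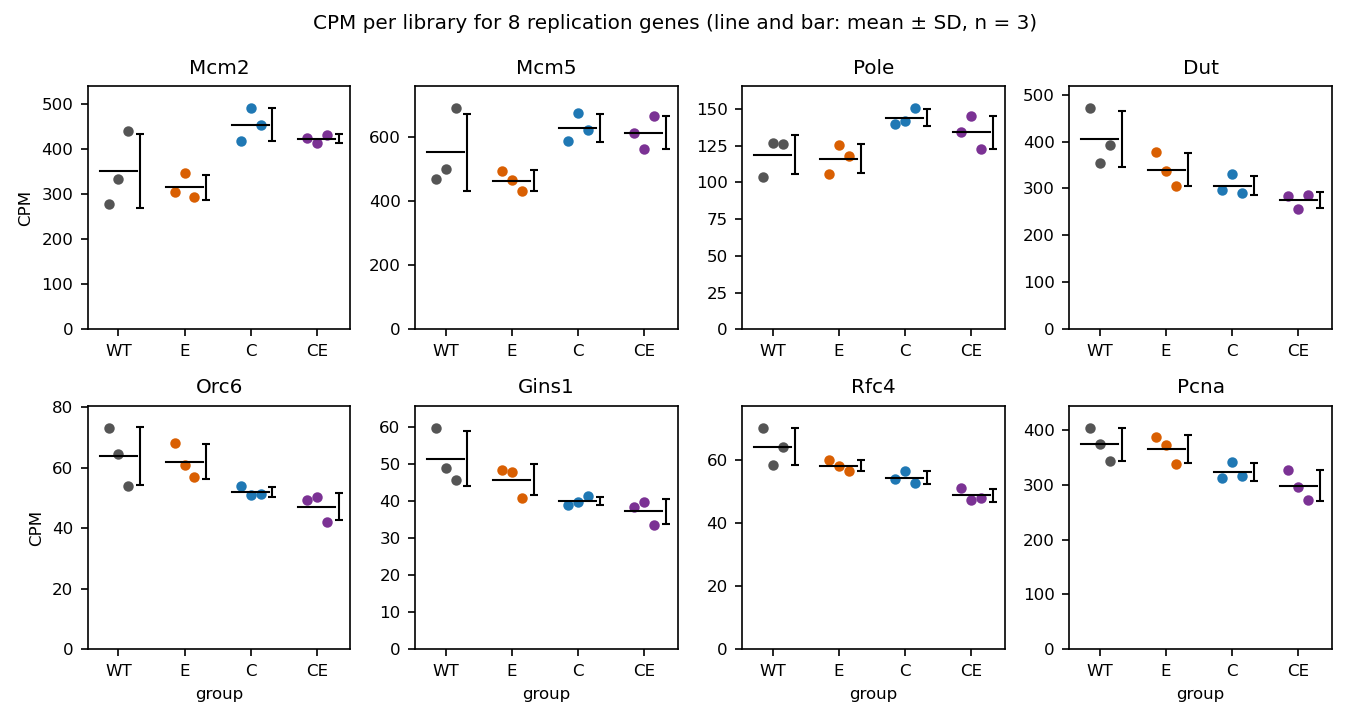
CPM (y axis, from 0) of 8 replication genes in each library, by group (x axis), with the mean as a line and the SD as a bar (n = 3). Mcm2, Mcm5 and Pole are higher in C and CE with WT4 or single libraries overlapping, and Dut, Orc6, Gins1, Rfc4 and Pcna are lower, with Orc6 the gene whose 6 caspase-deficient libraries all lie under the 6 others.

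Within a single background, with 3 against 3 libraries, 0 of 39 members passed. The median over the members was -0.08 in both C against WT (28 of 39 lower) and CE against E (24 lower), with medians of -0.01 and 0.0026 over all genes. In C against WT it was -0.0355 without WT2 (23 lower), -0.0463 without C1 (24 lower) and -0.123 without C2 (31 lower). In CE against E it was -0.0351 without E2 (23 lower), -0.0505 without E1 (22 lower) and -0.0465 without CE1 (25 lower). No call was made in C against WT, where 0.656% of all genes passed, and in CE against E, where 1.58% did. At an unadjusted p under 0.05, 2 members were higher and 7 lower in C against WT (23.2% of all genes), and 5 higher and 11 lower in CE against E (22.6%). DESeq2 called 2 and limma voom 4 members in C against WT, where 8.33% and 12.3% of all genes passed. In CE against E they called 4 and 5, where 8.17% and 9.62% did. In C against WT the smallest p belonged to Dut (log2 fold change -0.41, SE 0.12, unadjusted p = 0.00349, adjusted p = 0.073), Gins1 (-0.36), Pole (0.28) and Mcm2 (0.37), with adjusted p up to 0.128. In CE against E it belonged to Orc6 (log2 fold change -0.39, SE 0.12, unadjusted p = 0.00409, adjusted p = 0.0784), Slbp (-0.37), Mcm2 (0.43) and Mcm5 (0.40), with adjusted p up to 0.104. Groups did not overlap for 9 members in C against WT, 1 higher and 8 lower (26.3% of all genes), and for 21 members in CE against E, 8 higher and 13 lower (29.9%). The 8 higher ones in CE were Mcm2, Mcm3, Mcm5, Mcm7, Cdc6, Cdt1, Pold1 and Lig1. Without WT4, 7 members passed in C against WT (15.2% of all genes) and 5 in CE against E (10.6%). Without WT3, 1 passed in C against WT (5.25%), and without WT2 3 passed in CE against E (7.38%).

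The caspase comparison coincides almost wholly with Y-linked transcripts. WT and E libraries had next to none, C libraries all had them, and of the CE libraries CE3 did not. With their presence or absence as a covariate in the fit, 0 of 39 members passed, and 2 genes of 14473 did. Only the CE group held libraries of both kinds, so that term was set by CE3 against CE1 and CE2. The estimates themselves stayed in the same direction for the 12 genes, with wider errors: Mcm2 had 0.44 (SE 0.20, adjusted p = 0.255), Orc6 -0.55 (SE 0.16, adjusted p = 0.178), Gins1 -0.52 and Dut -0.29. Among the 7 libraries with next to no Y-linked transcripts, CE3 could be set beside the 6 WT and E libraries. CE3 lay below all 6 for each of the 9 genes that fell, among them Dut (286 CPM against 305 to 471) and Pcna (271 against 338 to 404), and inside their range for Mcm2, Mcm5 and Pole. For Mcm2 and Mcm5 the only one of the 6 above CE3 was WT4. CE3 and these 6 libraries were part of the comparison that called the 12 genes, so their order is not an independent check. CE3 also had the highest level of GC-rich against GC-poor members (0.32, described below), and the 9 genes that fell had at most 50.2% GC. The part of this in the order was not tested. Over all 39 members CE3 was below the 6 for 16 (41%) and above them for 1, and over all genes below for 19.5% and above for 21.8%. This is 1 library and allows no test, and outside the CE group caspase genotype and Y-linked transcripts cannot be told apart.

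CE3 and WT4 also stood apart in another respect. Genes with GC-rich transcripts were high relative to GC-poor ones in both: the mean deviation of the 19 members above the members' median GC content of 49.4%, minus that of the other 20, was 0.24 in WT4 and 0.32 in CE3 on the log2 scale. It was 0.05 to 0.12 in the other C and CE libraries and -0.25 to -0.12 in the other WT and E libraries. All genes tested gave 0.26 in WT4 and 0.26 in CE3 by the same measure at their own median. They gave -0.03 to 0.10 in the other C and CE libraries and -0.19 to -0.04 in the other WT and E libraries. Across the 39 members, the log2 fold change of the caspase comparison had a Pearson correlation of 0.61 with transcript GC content and 0.51 with log2 transcript length, as a description of genes measured in the same libraries. The 3 that rose had 50.6 to 55.5% GC and transcripts of 3371 to 7163 bases, and the 9 that fell 43.5 to 50.2% and 1087 to 3163 bases. Over all genes, the median log2 fold change was -0.10 in the third of the 12851 genes with a value that had the lowest GC content, 0.01 in the middle and 0.11 at the highest.

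**Figure D4:**
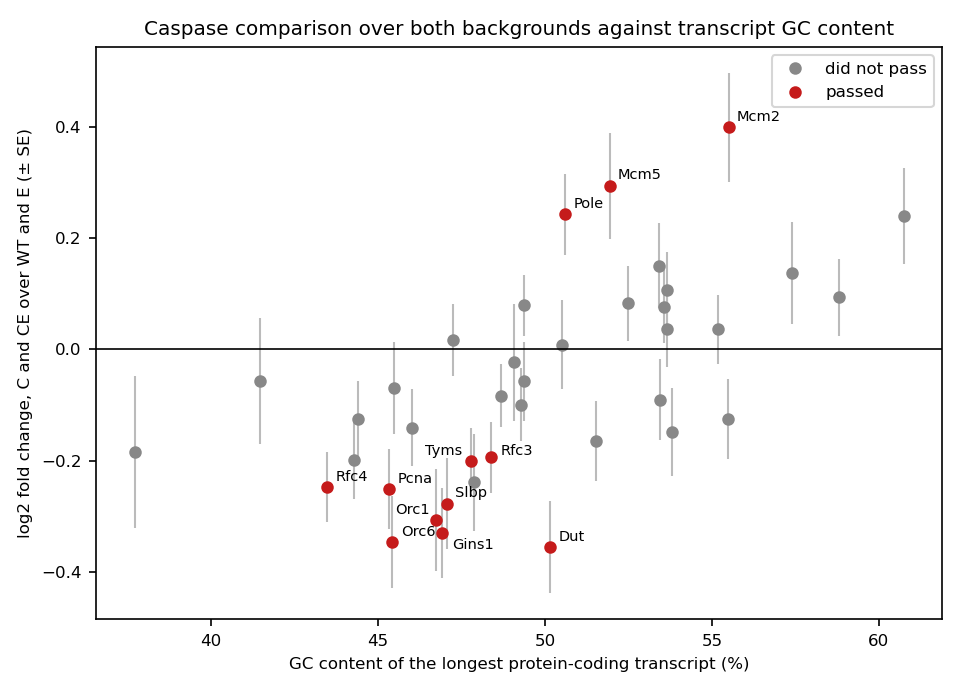
Log2 fold change of each of the 39 genes with caspase loss over both backgrounds (y axis, ± SE) against the GC content of its longest protein-coding transcript (x axis, percent); red points passed the threshold. The 3 genes that rose lie above 50% GC, and the 9 that fell lie at 50.2% or below.

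**Figure D5:**
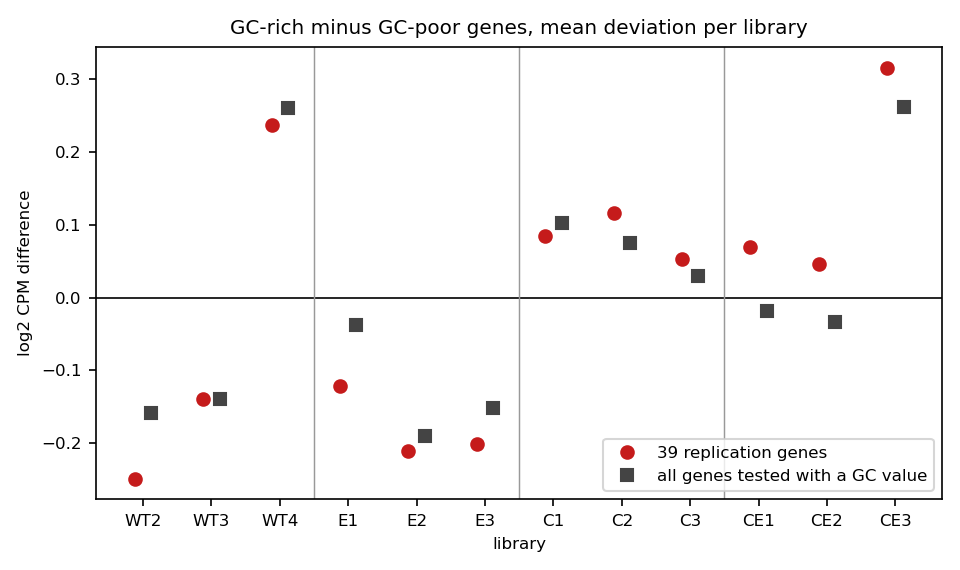
Mean log2 deviation of GC-rich genes minus that of GC-poor genes in each library (x axis), for the 39 replication genes (circles) and all tested genes with a GC value (squares), each cut at its own median GC content. WT4 and CE3 are highest by both measures, and WT2, WT3 and the 3 E libraries lie below 0 by both. For all tested genes CE1 (-0.018) and CE2 (-0.033) also lie below 0.

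With trends on GC content and length removed from each library, 4 of 39 members fell and 0 rose. This alternative was chosen after seeing the data, and 10.7% of its 12851 genes passed. The 4 members were Dut (-0.27, adjusted p = 0.0227), Chaf1a (-0.23, 0.0256), Gins2 (-0.25, 0.0414) and Mcm10 (-0.18, 0.0442), so Dut was the only one of the 12 that still passed. Mcm2 (0.24, adjusted p = 0.0521), Orc1 (-0.24, 0.0523) and Tyms (-0.18, 0.0526) came close to the threshold, while Gins1 was at -0.0032. Of the 9 that had fallen, Rfc4 (0.10), Pcna (0.02) and Rfc3 (0.04) changed sign. Leaving out single libraries left 5 to 19 of the members past the threshold, with 5 without WT2, C1 or C3, 6 without E1, E2 or CE3, and 19, of which 6 rose and 13 fell, without WT4. Over all genes, 12.8%, 13.5% and 10.8% passed without WT2, C1 and C3. The shares were 12.1%, 17.9% and 18% without E1, E2 and CE3, and 31.3% without WT4. Dut, Orc6, Mcm2, Gins1 and Rfc4 passed in all 12 such fits. For the transgene over both backgrounds, 38 of 39 had a negative value after the trends were removed (median -0.07, all genes 0.02), and 33 to 39 did without any single library.

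Further cell cycle genes in the caspase comparison had both directions, where 9.26% of all genes rose and 11.8% fell. With the covariate for Y-linked transcripts, 2 of 14473 genes passed in this comparison. Values for these lists were not taken from that fit or from the fit with GC and length trends removed. Of the 51 other replication genes, 12 fell and 0 rose, led by Gmnn (log2 fold change -0.56, SE 0.076, adjusted p = 0.00182), the inhibitor of Cdt1, Rpa3 (-0.56), the small subunit of the single-strand binding protein, and Rnaseh2b (-0.47), part of the enzyme that removes ribonucleotides from DNA. Gmnn was at 120.3, 97.8 and 92.3 CPM (WT), 106, 89.2 and 91.9 (E), 69.3, 72.1 and 71.4 (C) and 68.5, 64.9 and 59.9 (CE), with all C and CE libraries below all others. Of the 29 E2F and RB regulators, Cdk6 (0.62), Ccnd2 (0.30) and Cdkn1c (0.63) rose and Cdkn2c (-0.46) fell; the first pair form a G1 kinase and its cyclin, and the last pair inhibit such kinases. Of 26 genes of G2/M and mitosis, 9 fell, led by Ube2c (-0.58), Birc5 (-0.58) and Ccnb2 (-0.42), and Mybl2 (0.25) rose. Of 23 checkpoint genes, Tonsl (0.23) rose and 0 fell. The medians were -0.12, -0.03, -0.28 and 0.01, in the order of the lists given. In CE against E, Gmnn, Rpa3, Rnaseh2b and Asf1a fell, with Cdkn2c and 5 mitotic genes (1.58% of all genes passed), and in C against WT Gmnn alone did (0.656%). Basophil, eosinophil and mast cell genes moved with the same comparison: 6 of 11 fell (median -0.77), with the summed levels given above. Their part in the replication genes was not tested.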

How the data were processed

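The authors deposited a table of raw read counts per gene for all 12 libraries, listed by NCBI Gene number, and its values are whole numbers not normalized. Per the submitters' processing notes, STAR 2.5.3 and the mm10 build were used. For the counter, the annotation and the strandedness, the sources used here give no information. Symbols, positions and promoter windows came from RefSeq (GRCm38.p6), and transcript length and GC content from the longest protein-coding transcript in GENCODE M21. Gene numbers without a symbol (1904) made up 0.546 to 2.45% of a library and stayed in the tests.

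All 12 libraries entered a single edgeR 4.0.16 fit (R 4.3.3) of group means with TMM factors and the filterByExpr filter, without covariates. Quasi-likelihood F tests are two-sided, and the threshold was an adjusted p of 0.05 (Benjamini-Hochberg) over 14473 genes. A comparison over both backgrounds averages its 2 contrasts. The SE is the absolute log2 fold change over the square root of F. CPM use the effective library size. The pipeline was tested on simulated data. Alternatives were RLE factors, DESeq2 1.42.0, limma 3.58.1 voom with quality weights, 2 other filters, only the groups compared, a replicate block, a covariate for Y-linked transcripts and each library left out. Chosen after seeing the data were the paired removals of WT4 with CE3 and C1 with C3, and the removal of GC and length trends.

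The members and the other gene lists were chosen with earlier results of these data known. Named genes are up to 8 members that passed, by p, or else the 4 with the smallest p, and up to 3 of each other list that passed. Other members, Asf1a, Cdkn1c, Mybl2 and cell markers are named outside that rule.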

Additional observations from a re-analysis of the deposited data

How the results depend on the processing

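Calls in the transgene comparisons, their difference included, stayed at 0 members under each alternative run. In C against WT, where 0 members passed, the count was 2 with no filter on low counts, 2 by DESeq2, 4 by limma voom, 12 without WT4 and CE3 together, and 0 to 7 with single libraries left out. The shares over all genes were 6.36%, 8.33%, 12.3%, 19.7% and 0.0476 to 15.2%. In CE against E, also 0, the count was 4, 4, 5 and 1 under the same settings, 2 with only the groups compared, and 0 to 5 with single libraries left out. There the shares were 4.8%, 8.17%, 9.62%, 4.28%, 6.07% and 0.0134 to 10.6%. In the caspase comparison over both backgrounds the 12 became 0 with the covariate for Y-linked transcripts, 4 with GC and length trends removed, and 5 to 19 with single libraries left out. The shares over all genes were 0.0138%, 10.7% and 10.8 to 31.3%, in that order. It was 10 with no filter (14.2% of all genes), 14 by DESeq2 (24.8%) and 16 by limma voom (29.8%). Without WT4 and CE3 together it was 18 (31.1%). Removal of C1 and C3 together left 1 C library, and the median over the members was then -0.041, with 23 of 39 lower. With a replicate block, 4 members passed in C against WT, 6 in CE against E and 18 over both backgrounds. The shares over all genes were 14.1%, 10.2% and 30.6%. Replicate numbers showed no clear pairing: same-numbered samples had correlations of -0.36 to 0.24, with 4 of 15 pairs over 0.1, and 2 of 12 samples correlated best with their own number. These correlations cannot settle whether mice shared litters or sorting days, which the labels do not state.

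Medians over the members moved as follows. Without C1 and C3 together they were -0.12 in CE against C, 0.0063 in C against WT and -0.0408 for the difference between transgene effects. With GC and length trends removed they were -0.0027 in CE against E, -0.0286 in CE against C (24 of 39 lower) and -0.0286 in the caspase comparison, and Pole in C against WT (-0.0163) and Rfc4 (0.0997), Pcna (0.0214) and Rfc3 (0.0393) in the caspase comparison changed sign. With single libraries left out, the median ranged from -0.168 to -0.0642 in E against WT, from -0.0913 to -0.0399 in CE against C, from -0.123 to -0.0355 in C against WT, from -0.1005 to -0.0351 in CE against E and from -0.0065 to 0.0924 for the difference. With no filter the median of all genes shifted by 0.12 in the caspase comparison and 0.13 in C against WT. The cause of these changes was not tested. With 3 mice per group and a median SE of about 0.10 for a member in a 2-group comparison, differences of the size of the transgene medians could not be detected gene by gene.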
